A study of Mus musculus with 28 samples.

Results

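Subcutaneous white fat from obese mice with a constitutive adipose knockout of Fgf13 was compared with the same depot from obese control mice. The comparison used 6 of the 28 RNA-seq libraries of the study, 3 labelled WT and 3 labelled Fgf13 KO, chosen by depot and knockout type (sWAT in the labels). All mice were obese, with 20 weeks of high fat feeding. Age, sex, strain and the Cre driver behind the adipose knockout are not given in the labels, which also leave unsaid whether each library is a separate mouse. Each p therefore measures the spread between these samples, which may be technical. Values are CPM, that is, reads scaled to a common library total. Of 55891 gene identifiers, 13816 had at least 1 CPM in 3 or more libraries and were tested.

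FGF13 belongs to the fibroblast growth factor homologous factors, proteins that lack a secretion signal, act inside the cell and are known for binding voltage-gated sodium channels and microtubules. The title of the study places the gene in an axis with ceramide, a sphingolipid that accumulates in obese adipose tissue and is known to dampen insulin signalling. White fat is made of lipid-filled adipocytes together with endothelial cells, fibroblast-like progenitors and immune cells. In obesity it also gains macrophages that take up lipid and express genes such as Gpnmb and Itgax.

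The libraries differed in ways that bear on all results. Depth ran from 13490948 to 21241811 reads, so that 1 read was worth 0.0471 to 0.0741 CPM. Knockouts 2 and 3 held skeletal muscle RNA: the 32 genes of a muscle list summed to 3257 and 4259 CPM there, against 75.4 CPM in knockout 1 and 77.1 to 87.5 CPM in the controls. Muscle genes of these 2 libraries included Acta1, skeletal actin (479 and 536 CPM against 13.8 to 25.7 CPM in the other 4 libraries), and Pvalb, the calcium buffer parvalbumin (175 and 243 CPM against 1.68 to 6.64 CPM). Of the 32 genes, 22 reached 1 CPM in each of knockouts 2 and 3 and 8 or 9 in each other library, so that only 9 passed the filter. Knockout 1 stood apart in other ways, with 176 genes more than 2-fold outside all other libraries against 17 to 46 in controls 1 and 2 and knockouts 2 and 3. In control 3 the number was 145, and its T and NK cell list averaged 3.62 on the log2(CPM + 1) scale against 1.78 to 2.01 in the other 5 libraries. The mature adipocyte list was abundant in all 6 libraries, at a mean of 9.61 to 9.89.

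**Figure D1:**
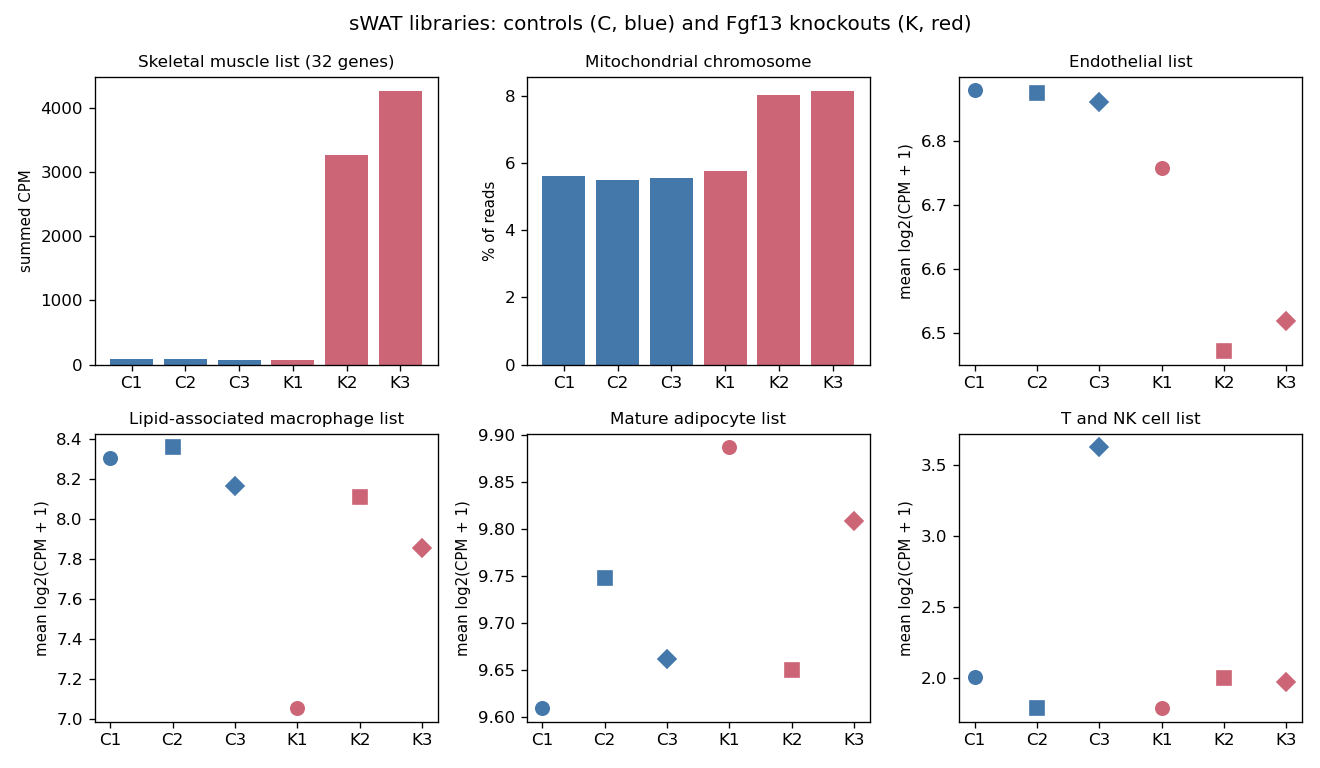
Summed CPM of 32 skeletal muscle genes, percent of reads from the mitochondrial chromosome, and the mean log2(CPM + 1) of 4 marker lists in each sWAT library (C1 to C3 control, blue; K1 to K3 knockout, red). Muscle and mitochondrial reads were high in K2 and K3, the lipid-associated macrophage list was lowest in K1 (7.05) and the T and NK cell list was highest in C3 (3.62).

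Fgf13 itself was read first. It stood at 110.1, 113 and 106 CPM in the controls and at 43.0, 62.5 and 84.0 CPM in knockouts 1, 2 and 3. Every knockout library lay below every control, but the knockouts differed among themselves by more than the highest of them differed from the lowest control, and their mean was still 0.577 times that of the controls. The means were 109.5 ± 3.63 and 63.2 ± 20.5 CPM (SD, n = 3 each), and the difference did not pass the test across all genes (log2 change -0.83, SE 0.22, limma adjusted p = 0.447). An exact two-sided permutation test gave p = 0.1, the smallest that 3 against 3 libraries allow. Knockout 1 alone, set against the controls on the assumption that a lone library varies as they do, gave -1.33 (limma adjusted p = 0.000566). Knockouts 2 and 3 without knockout 1 gave -0.59 (limma adjusted p = 0.222). Over all alternatives the adjusted p ran from 0.000566 to 0.843. Adipocytes are not the only cells in the tissue, and in bulk RNA fewer cells of a type and less RNA per cell cannot be told apart.

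Across all genes, 3 rose and 0 fell at an adjusted p of 0.05 (limma; 0.0217% of those tested). These were Bckdhb and the processed pseudogenes Gm7049 and Gm11868. At an unadjusted p under 0.05, 267 genes (1.93%) were higher and 1067 (7.72%) lower; with TMM scaling, which moved the median change of all genes from -0.05 to -0.01, the split was 512 (3.71%) against 668 (4.83%). The knockout and control libraries did not overlap for 2220 genes (16.1%), 525 higher (3.80%) and 1695 lower (12.3%). The change was below 0 for 8682 of the 13816 genes and above 0 for 5134. The count of calls depended on the libraries. It was 765 (5.54%) for knockout 1 alone against the controls, 32 (0.232%) with knockout 1 left out, 92 with knockout 2 left out, 1 with knockout 3 left out, 3 without control 1 and 0 without control 2 or control 3, where 207 and 166 genes were higher and 883 and 628 lower at an unadjusted p under 0.05. On the recovered reads, edgeR's quasi-likelihood test called 1 gene (Gm7049; 0.00724%) and DESeq2 called 52 (0.377%), 37 higher and 15 lower.

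Bckdhb encodes the E1 beta subunit of the mitochondrial dehydrogenase that commits branched-chain amino acids to breakdown. It stood at 47.2, 52.4 and 46.4 CPM in the controls and at 85.4, 94.5 and 85.6 CPM in the knockouts. The groups were far apart and the 3 knockout libraries, with and without muscle RNA, lay close together. The mean was 1.82 times that of the controls (48.7 ± 3.24 against 88.5 ± 5.19 CPM; log2 change 0.85, SE 0.08, limma adjusted p = 0.0229). With any 1 control left out the change stayed between 0.82 and 0.90 while the adjusted p went to 0.113 to 0.227, and without knockout 3 it was 0.179. In edgeR the adjusted p was 0.0542, and over all alternatives it ran from 8.12e-14 (DESeq2) to 0.291.

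Of 25 branched-chain amino acid genes tested, Bckdhb among them, 20 had a change above 0, as did 5134 of all 13816 genes. At an unadjusted p under 0.05, 2 list genes were higher and 1 lower (8% and 4%, against 1.93% and 7.72% of all genes). The median of the list was 0.12. With the muscle list as a covariate, a fit that largely sets knockout 1 against the controls, 12 were higher and 1 lower at an unadjusted p under 0.05, against 5.39% and 10.1% of all genes. Bcat2, the mitochondrial aminotransferase that carries out the first step in fat, stood at 116, 117 and 97.4 CPM in the controls and 173, 112 and 158 CPM in the knockouts, which overlapped. Bcat1, its cytosolic counterpart, stood at 50.8, 61.5 and 51.8 CPM against 34.6, 39.6 and 46.5 CPM, with no overlap (log2 change -0.44, limma adjusted p = 0.447). The list's median was 0.31 in knockout 1 and 0.04 in knockouts 2 and 3.

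Gm7049 and Gm11868 are annotated as processed pseudogenes, intron-less copies of messenger RNAs inserted elsewhere in the genome. Gm7049 lies on chromosome 13 and is a copy of Me1, the cytosolic malic enzyme that supplies NADPH for fatty acid synthesis. Gm11868 lies on chromosome 4 and is a copy of Cyb5r4, a cytochrome b5 reductase. Another pseudogene, Morf4l1-ps1 on chromosome 16, is a copy of Morf4l1, a chromatin protein. All 3 coding genes lie on chromosome 9. Aligned over their coding sequence, Gm7049 was 98.77% identical to Me1, Gm11868 98.44% to Cyb5r4 and Morf4l1-ps1 99.79% to Morf4l1. For each pair, the 60-base stretch with the most mismatches is shown, from the GENCODE M21 transcripts (GRCm38, transcript strand). Within it, reads of a pair can be told apart only where the bases in capitals, the mismatches within a pair, fall in the read.
Gm7049: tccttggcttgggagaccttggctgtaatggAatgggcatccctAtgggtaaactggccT
Me1: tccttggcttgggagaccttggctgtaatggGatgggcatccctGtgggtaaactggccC
Gm11868: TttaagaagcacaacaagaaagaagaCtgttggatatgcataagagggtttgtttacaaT
Cyb5r4: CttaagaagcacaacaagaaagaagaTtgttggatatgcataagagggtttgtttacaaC
Morf4l1-ps1: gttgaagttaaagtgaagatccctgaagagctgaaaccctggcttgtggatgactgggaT
Morf4l1: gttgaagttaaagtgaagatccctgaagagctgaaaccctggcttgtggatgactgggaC

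The stretches span bases 466 to 525 of the Gm7049 transcript, 82 to 141 of Gm11868 and 460 to 519 of Morf4l1-ps1, and bases 467 to 526, 184 to 243 and 460 to 519 of the coding sequences of Me1, Cyb5r4 and Morf4l1. Over the whole aligned length, 51.68% of 50-base windows, the number of sequencing cycles, were identical in Gm7049 and Me1, 43.06% in Gm11868 and Cyb5r4, and 93.15% in Morf4l1-ps1 and Morf4l1. Reads from such windows cannot be assigned by sequence, so the values of the pseudogenes depend on how the authors' tool divided them. At least 10% of the 31-base words of Morf4l1-ps1 were shared with each of 8 genes, Morf4l1 among them. For Gm7049 this held for 2 genes and for Gm11868 for 1. Reads of Morf4l1-ps1 could thus also match genes outside the pair.

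Gm7049 stood at 0.141, 0.222 and 0.245 CPM in the controls, which is 3, 3 and 4 reads, and at 15.1, 28.5 and 30.7 CPM in the knockouts, which is 279, 408 and 488 reads. It was nearly absent in 1 group and plain in every library of the other (log2 change 4.36, SE 0.25, limma adjusted p = 0.00265, from 1.05e-33 to 0.0957 over the alternatives, the highest without control 2, with 0.0601 without control 3). Gm11868 was at 0 in all 3 controls and at 2.76, 2.58 and 2.51 CPM in the knockouts, which is 51, 37 and 40 reads. Set against a floor of 3 reads over the 3 controls it was at least 44.7-fold higher (log2 change 1.85, limma adjusted p = 0.0166, 0.0542 in edgeR, 0.0647 to 0.122 without any 1 control and 0.179 without knockout 3). Morf4l1-ps1 stood at 1.65, 0 and 0 CPM against 13.04, 13.2 and 12.8 CPM, again without overlap, and did not pass (log2 change 3.34, limma adjusted p = 0.107).

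The coding genes did not go up with their copies. Me1 stood at 975, 1001 and 932 CPM in the controls and 496, 822 and 844 CPM in the knockouts (log2 change -0.47, limma adjusted p = 0.516). Cyb5r4 stood at 37.2, 36.9 and 38.2 CPM against 30.5, 30.4 and 30.7 CPM (log2 change -0.29, limma adjusted p = 0.447). For both, the knockout libraries lay below the controls while their copies lay above. Gm7049 made up 2.95% to 3.51% of the sum with Me1 in the knockouts and at most 0.0263% in the controls, and Gm11868 7.58% to 8.29% of the sum with Cyb5r4 against 0%.

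The same copies were read in the other depots, each of which was tested in its own table. In brown fat of the constitutive knockout (3 control and 2 knockout libraries), Gm7049 stood at 0.235, 0.125 and 0 CPM against 16.7 and 10.97 CPM (limma adjusted p = 0.0351, as for 0.00755% of genes there), and Gm11868 at 0 in every control against 2.28 and 3.21 CPM. In a further epididymal set (eWAT in the labels), for which the labels name neither the knockout type nor the diet and whose values are FPKM (fragments per kilobase and per 1e+06 fragments), Fgf13 was not lower in the libraries labelled knockout (20.4, 27.6 and 12.9 FPKM in the libraries labelled control against 23.1, 17.6 and 27.0 FPKM). The targeted gene thus does not separate the labels of that set, and its values are given by label only. There Gm7049 stood at 0.0519, 0.0920 and 0 against 14.4, 12.3 and 19.0 FPKM (limma adjusted p = 0.00104; 14.9% of genes passed there). In the inducible knockout of subcutaneous and epididymal fat, Gm7049 stayed between 0.0229 and 0.451 CPM in all 11 libraries, controls and knockouts alike, and Gm11868 was at 0.0813 CPM or lower. Whether the libraries of different depots came from the same mice is not stated.

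**Figure D2:**
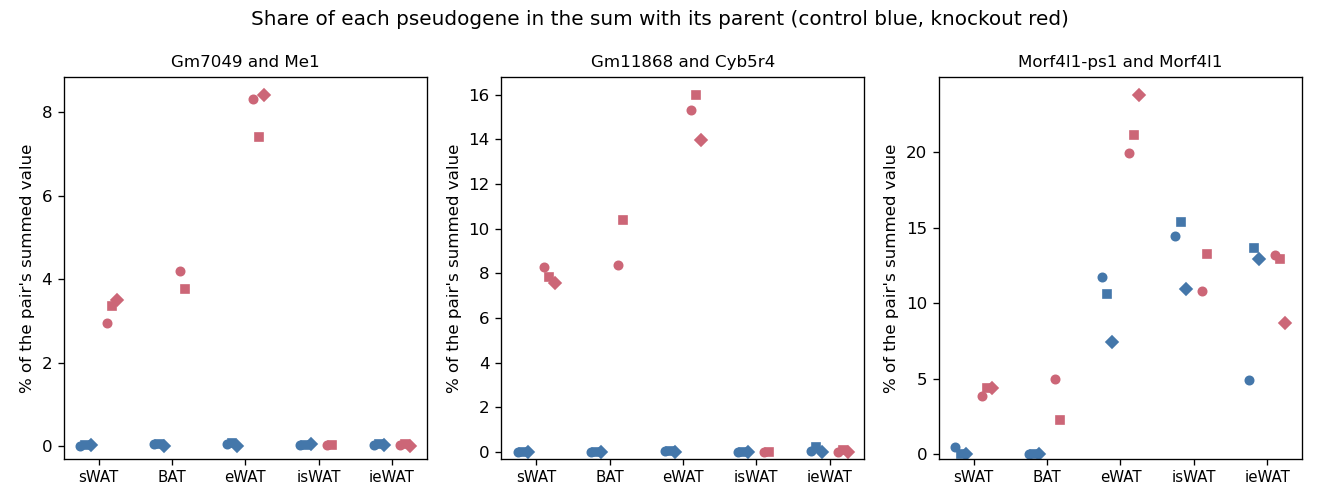
Percent of the summed value of a pseudogene and its coding gene that the pseudogene took, in each library of 5 depots (control blue, knockout red; circle, square and diamond are replicates 1, 2 and 3; CPM except eWAT, in FPKM). Gm7049 and Gm11868 held a share in the knockouts of sWAT, BAT and eWAT and almost none in isWAT and ieWAT; Morf4l1-ps1 did so in both groups of eWAT, isWAT and ieWAT.

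Zxda and Gm13772 were also at 0 in 1 group. Zxda, annotated as an unprocessed pseudogene on the X chromosome, has a transcript 100% identical to the coding sequence of the zinc finger gene Zxdb over 2618 aligned bases. It stood at 1.46, 1.41 and 2.08 CPM in the controls and 0 in every knockout (log2 change -1.40, limma adjusted p = 0.107). Zxdb stood at 6.64, 6.37 and 8.20 CPM against 9.63, 9.28 and 8.17 CPM, above the controls in knockouts 1 and 2 only. Reads from the aligned bases of this pair cannot be told apart. Gm13772, a copy of the cytochrome c gene Cycs, was at 0 in the controls and at 1.46, 2.16 and 1.45 CPM in the knockouts, at least 28.3-fold higher against the same floor, and did not pass (limma adjusted p = 0.107). In brown fat both genes overlapped between the groups. At least 10% of the 31-base words of Gm13772 were shared with each of 10 genes, Cycs among them.

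Bckdhb lies on chromosome 9, as do several other genes with small p values. When the genome was divided into windows of 10 Mb (positions from GENCODE M21, GRCm38; the build behind the files is not given in the sources used here), the window with the highest share of genes at an unadjusted p under 0.01 was that of Bckdhb, with 6 of 36 genes (16.7%) against 2.16% over all genes and a median of 1.85% over 222 windows. The next window along chromosome 9 came second, with 5 of 40 (12.5%). Within 10 Mb of the start of Bckdhb, 9 of 75 genes had such a p (12%), against 21 of 696 (3.02%) on the rest of the chromosome. This distance was chosen after the values were seen, and no test was made of the clustering. Leaving out any 1 control took the count in the window from 6 to 3, and without knockout 2 it ranked 10 among the windows.

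The 6 genes of the window went both ways. Bckdhb, Tpbg, a membrane glycoprotein of trophoblast, Zfp949 and Gm38279 were higher, and Cyb5r4 and Cep162, a centriole protein, were lower. Apart from Bckdhb none passed the adjusted threshold. Tpbg stood at 0.518, 1.26 and 1.04 CPM against 2.44, 2.51 and 2.07 CPM, and Zfp949 at 7.44, 7.635 and 8.08 CPM against 11.8, 11.5 and 9.996 CPM. Cep162 stood at 7.34, 9.71 and 8.75 CPM against 5.68, 6.00 and 4.46 CPM. None of the 6 overlapped between groups, against 16.1% of all genes without overlap. The 6 were chosen by their p in the same libraries, which favours such genes. Me1 lies 2.66 Mb from Bckdhb, Cyb5r4 3.10 Mb and Morf4l1 6.17 Mb.

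Gsta4, a glutathione transferase that detoxifies the lipid aldehyde 4-hydroxynonenal, lies 5.74 Mb to the other side of Bckdhb. It stood at 8.14, 11.9 and 7.22 CPM in the controls and at 45.3, 28.7 and 29.3 CPM in the knockouts, a mean 3.78 times higher without overlap. It did not pass over all libraries (log2 change 1.81, SE 0.23, limma adjusted p = 0.183), and did with either knockout 1 (0.0356) or knockout 2 (0.0451) left out and in DESeq2 (3.31e-12). Plod2, the lysyl hydroxylase of collagen telopeptides, lies 8.62 Mb from Bckdhb and stood at 18.4, 20.8 and 20.1 CPM against 7.47, 11.6 and 9.56 CPM (log2 change -0.995, limma adjusted p = 0.233). Col6a6, a collagen VI chain, lies 21.8 Mb away and stood at 4.71, 4.00 and 6.43 CPM against 13.7, 11.5 and 9.43 CPM (log2 change 1.06, limma adjusted p = 0.387).

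These neighbours were followed into the other depots. Bckdhb stood at 104, 116 and 103 CPM against 137 and 163 CPM in brown fat (log2 change 0.48, limma adjusted p = 0.237) and at 16.0, 17.5 and 14.8 against 46.5, 54.4 and 60.3 FPKM in the libraries labelled control and knockout of the further epididymal set (limma adjusted p = 0.00468). Gsta4 was higher without overlap in both sets too (log2 change 0.79 and 1.89, in tables where 44.5% and 41.2% of all genes had groups without overlap in either direction). In the inducible knockouts the groups overlapped for both genes, with log2 changes for Bckdhb of 0.06 in subcutaneous and 0.09 in epididymal fat. In the window of Bckdhb, 3 of 31 genes had a p under 0.01 in brown fat (9.68%, against 3.89% over all genes), 11 of 39 in the further epididymal set (28.2% against 17.1%), and 0 of 36 and 0 of 37 in the inducible sets (against 3.19% and 0.793%). The 3 genes of brown fat were Bckdhb, Tbx18 and Bcl2a1d, and only Bckdhb was among the 6 of subcutaneous fat. In brown fat the log2 change was -0.10 for Cyb5r4, -0.36 for Cep162 and 0.03 for Zfp949. Tpbg and Gm38279 were not among the genes tested there.

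**Figure D3:**
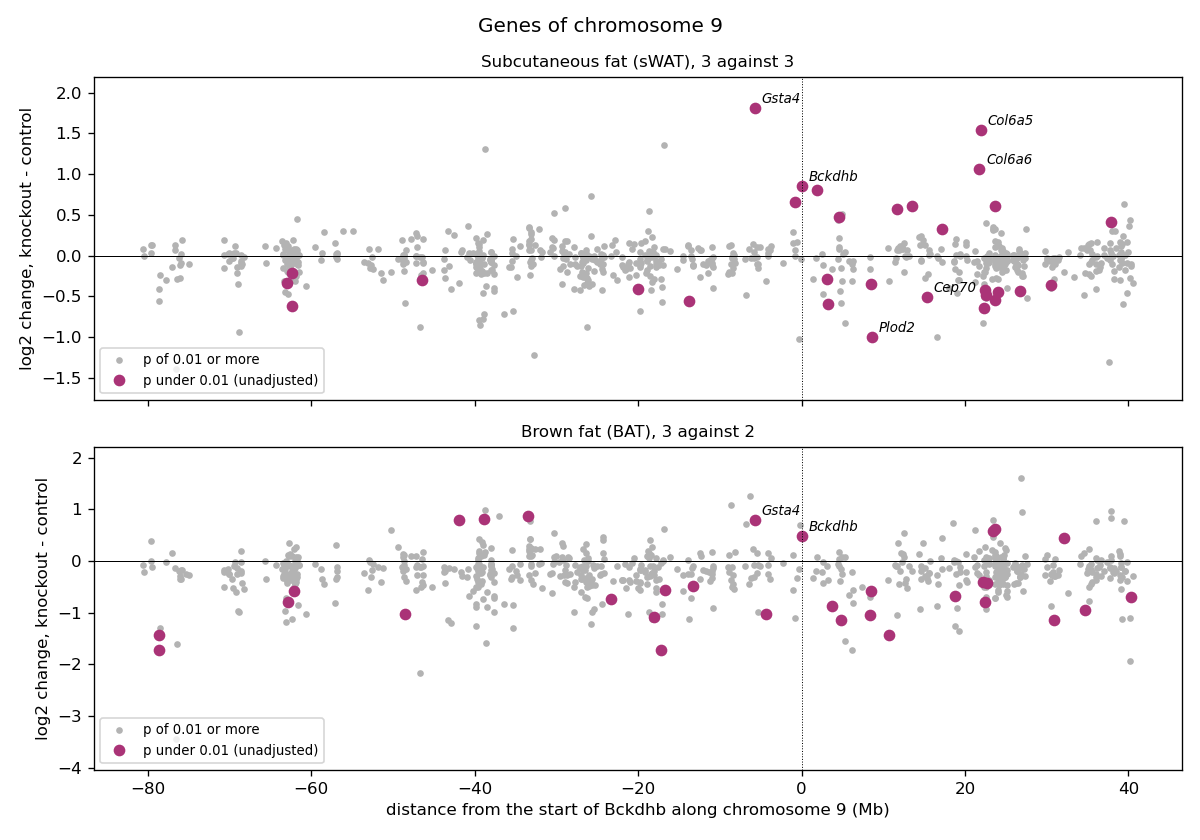
Log2 change (knockout minus control) of each tested gene of chromosome 9 against its distance in Mb from the start of Bckdhb, in sWAT (top) and brown fat (bottom); coloured points had an unadjusted limma p under 0.01. In sWAT 9 of 75 genes within 10 Mb of Bckdhb were coloured, against 21 of 696 farther away; in BAT 7 of 69 against 24 of 669.

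Sphingolipid genes were examined because of the ceramide axis in the title. Of 12 genes of ceramide synthesis, 1 was higher and 0 lower at an unadjusted p under 0.05. The shares were 8.33% and 0%, against 1.93% and 7.72% of all genes. The median change was -0.06, next to -0.05 for all genes. The gene was Sptssa, a small subunit of serine palmitoyltransferase (74.0, 66.3 and 67.1 CPM against 82.7, 78.3 and 86.9 CPM). Of 18 genes of ceramide and sphingomyelin turnover, 1 was higher (5.56%, against 1.93% of all genes) and 5 lower (27.8%, against 7.72%), with a median of -0.12.

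Smpd3, the neutral sphingomyelinase that releases ceramide from sphingomyelin, was the one that was higher. It stood at 11.5, 11.3 and 10.8 CPM in the controls and at 18.5, 21.3 and 23.3 CPM in the knockouts. The 3 controls were nearly equal and all knockouts lay above them, but the change did not pass over all libraries (log2 change 0.85, SE 0.11, limma adjusted p = 0.107; 0.0154 without knockout 1, 0.0394 without knockout 2, 1.38e-05 in DESeq2). Among the lower genes, Sgms1, which makes sphingomyelin from ceramide, stood at 109, 94.7 and 93.1 CPM against 68.3, 79.5 and 84.3 CPM. Cerk, the ceramide kinase, stood at 50.2, 44.9 and 45.3 CPM against 28.5, 38.2 and 39.2 CPM. In both genes knockout 1 was the lowest library, and the limma adjusted p was 0.447 in each.

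Nutrient sensing, the other term of the title, gave few differences. Of 38 genes of mTORC1 and AMPK signalling, 1 was higher and 3 lower at an unadjusted p under 0.05 (2.63% and 7.89%, near the 1.93% and 7.72% of all genes), and 2 and 7 did not overlap, next to 3.80% and 12.3% of all genes. Sesn2 and Sesn1 encode sestrins, stress-induced proteins through which leucine reaches mTORC1. Sesn2 stood at 75.7, 71.2 and 64.9 CPM against 46.1, 60.01 and 53.8 CPM (log2 change -0.40, limma adjusted p = 0.447). Prkaa2, a catalytic subunit of AMPK, stood at 10.2, 12.97 and 11.1 CPM against 13.9, 14.9 and 16.0 CPM. In insulin signalling, 1 of 20 genes was higher and 3 lower (5% and 15%, against 1.93% and 7.72% of all genes). Grb10, an adaptor that restrains the insulin receptor, stood at 43.0, 41.3 and 37.5 CPM against 57.8, 50.7 and 52.9 CPM. Irs2, a substrate of that receptor, stood at 52.4, 49.7 and 65.7 CPM against 43.6, 46.0 and 43.9 CPM.

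Caveola proteins, which coat the membrane pits that are dense on adipocytes, showed little. Of 8 tested, 1 was higher and 0 lower at an unadjusted p under 0.05 (12.5% and 0%, against 1.93% and 7.72% of all genes). Cav1 overlapped between groups (2863, 3050 and 2832 CPM against 3604, 2810 and 3199 CPM). Cavin1 was slightly lower in every knockout (1718, 1715 and 1703 CPM against 1575, 1554 and 1684 CPM; log2 change -0.09, limma adjusted p = 0.736).

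Over all libraries, adipocyte genes were close to the controls. Of 20 mature adipocyte genes, 2 were higher and 0 lower at an unadjusted p under 0.05, with a median change of 0.04. The shares were 10% and 0%, against 1.93% and 7.72% of all genes. The list's median was 0.23 in knockout 1 and -0.0008 in knockouts 2 and 3. Adipoq, adiponectin, stood at 2749, 3136 and 2910 CPM against 2525, 3172 and 2765 CPM, and Lep, leptin, at 4493, 4242 and 4646 CPM against 6578, 4118 and 6819 CPM. Both overlapped. Acvr1c, the activin receptor ALK7, stood at 83.8, 88.9 and 90.6 CPM against 110.6, 103 and 123 CPM, without overlap (log2 change 0.35, limma adjusted p = 0.447, DESeq2 adjusted p = 0.0398). Of 19 lipogenesis genes 0 were higher and 0 lower at an unadjusted p under 0.05. With the muscle list as a covariate, a fit that largely sets knockout 1 against the controls, 2 were higher and 7 lower. All genes had shares of 5.39% and 10.1% in that fit. At its adjusted threshold, 2 of the 19 were lower, both among the 7, against 0.774% of all genes. The list's median was -0.13 in knockout 1 and -0.02 in knockouts 2 and 3. Fasn, fatty acid synthase, stood at 1612, 2212 and 1728 CPM against 1679, 1695 and 2267 CPM. Of 18 genes of fatty acid oxidation 1 was lower (5.56%, against 7.72% of all genes). This was Cpt1a, which admits fatty acids to mitochondria (201, 205 and 207 CPM against 128, 187 and 155 CPM). Ucp1, the uncoupling protein of brown and beige fat, was low and scattered in both groups (4.99, 5.34 and 2.14 CPM against 0.433, 5.51 and 0.377 CPM).

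Endothelial genes lay below the controls as a group. All 22 tested had a change below 0, as did 8682 of all 13816 genes. Of the 22, 12 were lower at an unadjusted p under 0.05 (54.5%, against 7.72% of all genes) and 0 at the adjusted threshold, with a median of -0.28 (-0.23 with TMM scaling). Aqp1, the water channel of capillaries, stood at 906, 851.5 and 961 CPM in the controls and at 659, 615 and 580 CPM in the knockouts (log2 change -0.55, SE 0.09, limma adjusted p = 0.352). Pecam1, the adhesion molecule CD31, stood at 386, 384 and 397 CPM against 326, 284 and 284 CPM. Eng, endoglin, stood at 201, 204 and 200.4 CPM against 169, 139 and 145 CPM. In all 3 genes the groups did not overlap, and DESeq2 gave adjusted p values of 1.17e-06, 0.0075 and 0.0219.

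The endothelial difference was larger in the libraries that held muscle RNA. The median was -0.38 in knockouts 2 and 3 and -0.10 in knockout 1. With the muscle list as a covariate, 7 of the 22 were lower at an unadjusted p under 0.05 (10.1% of all genes were), with a median of -0.13. The part of muscle RNA in this difference was not tested. Outside the list, Car4, a carbonic anhydrase found on capillaries, stood at 69.4, 58.6 and 63.2 CPM against 44.6, 42.8 and 47.4 CPM, and Btnl9, a butyrophilin-like gene, at 129, 127 and 136 CPM against 107, 92.3 and 98.1 CPM. Cyp4b1, a fatty acid hydroxylase, stood at 138, 137 and 151 CPM against 92.7, 103 and 96.9 CPM, with knockout 1 the lowest (log2 change -0.54, SE 0.07, limma adjusted p = 0.147).

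Mitochondrially encoded genes were higher. All 13 had a change above 0, as did 5134 of all 13816 genes. Of the 13, 8 were higher at an unadjusted p under 0.05 (61.5%, against 1.93% of all genes) and 0 at the adjusted threshold, with a median of 0.38. The share of reads from the mitochondrial chromosome was 5.63%, 5.49% and 5.56% in the controls, 5.77% in knockout 1 and 8.02% and 8.15% in knockouts 2 and 3, the libraries with muscle RNA. The list's median was 0.07 in knockout 1 and 0.56 in the other 2 knockouts, and the part of muscle RNA was not tested. Single genes were high in knockout 1 too. The large ribosomal RNA gene mt-Rnr2 stood at 443, 513 and 538 CPM against 723, 697 and 680 CPM (log2 change 0.49, SE 0.10, limma adjusted p = 0.447, DESeq2 1.95e-05), and mt-Co2, a cytochrome oxidase subunit, at 3676, 4611 and 3715 CPM against 5661, 5818 and 7257 CPM. Of 47 nuclear genes of oxidative phosphorylation, 0 were higher and 0 lower at an unadjusted p under 0.05, against 1.93% and 7.72% of all genes. A change above 0 was found for 36 of the 47, as for 5134 of all 13816 genes. Without overlap, 7 lay above the controls and 0 below, next to 3.80% and 12.3% of all genes. The median was 0.05, with 0.001 in knockout 1 and 0.06 in knockouts 2 and 3.

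Genes of muscle glycolysis were high in the same 2 libraries. Pfkm, muscle phosphofructokinase, stood at 24.1, 23.0 and 23.6 CPM in the controls, 29.5 CPM in knockout 1 and 57.9 and 61.6 CPM in knockouts 2 and 3. Pygm, muscle glycogen phosphorylase, and Eno3, muscle enolase, stood at 107 and 102 CPM and at 96.8 and 97.9 CPM in knockouts 2 and 3 and at most at 5.26 and 8.08 CPM in the other 4 libraries. In all, 28 genes were at least 2-fold higher in both of these libraries than in any other, and 21 of the 30 genes called higher (0.217%) when knockout 1 was left out were among them. Of the 52 genes called by DESeq2 over all libraries, 4 were among the 28. The groups did not overlap for 51 of the 52, against 16.1% of all genes. A call from the same 6 libraries favours such genes.

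Macrophage genes went both ways. Of 16 lipid-associated macrophage genes, 15 had a change below 0, as did 8682 of all 13816 genes, and the list's median was -0.49. At an unadjusted p under 0.05, 2 were lower (12.5%, against 7.72% of all genes), and 0 were at the adjusted threshold. Of the list, 6 lay below the controls without overlap, as did 12.3% of all genes. Gpnmb stood at 256, 297 and 228 CPM in the controls and at 55.7, 179 and 169 CPM in the knockouts (log2 change -1.11, SE 0.48, limma adjusted p = 0.525). Itgax, the integrin CD11c, stood at 59.3, 71.7 and 54.7 CPM against 18.8, 38.9 and 35.3 CPM (log2 change -1.03, SE 0.28, limma adjusted p = 0.447). Knockout 1 was by far the lowest library in both. The list's median was -1.05 in knockout 1 and -0.23 in knockouts 2 and 3, and the pan-macrophage genes Adgre1 and Cd68 were lowest in knockout 1 as well (50.3 and 46.3 CPM, against 122.9 CPM or more in the controls).

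Single phagocyte genes lay above the controls, while most genes of the related lists had a change below 0, as did most genes tested. Cd209d, a C-type lectin, stood at 7.34, 9.12 and 10.4 CPM against 15.9, 15.4 and 17.2 CPM (log2 change 0.80, SE 0.13, limma adjusted p = 0.352). Mgl2, the lectin CD301b, stood at 31.5, 40.6 and 41.9 CPM against 73.2, 54.4 and 66.5 CPM (log2 change 0.75, limma adjusted p = 0.447), and Cd163, the haptoglobin-haemoglobin receptor, at 17.8, 31.8 and 24.4 CPM against 41.4, 35.6 and 38.4 CPM. The groups did not overlap for any of these, and Cd209d and Mgl2 passed in DESeq2 (adjusted p = 0.00113 and 0.000284). Of the 16 resident macrophage genes as a whole, 11 had a change below 0, as did 8682 of all 13816 genes, and the median was -0.20. At an unadjusted p under 0.05, 1 was higher and 1 lower (6.25% each, against 1.93% and 7.72% of all genes). Of 13 antigen presentation genes, 11 had a change below 0, with a median of -0.17. At an unadjusted p under 0.05, 1 of them was higher and 0 lower (7.69% and 0%).

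Lymphocyte lists followed 1 control. The B cell and lymph node list had a median of -1.33 and the T and NK cell list of -0.57, with 0 genes at an unadjusted p under 0.05 in either. Cd22, a B cell receptor inhibitor, stood at 7.58, 3.71 and 24.2 CPM in the controls and 3.08, 3.28 and 2.20 CPM in the knockouts, and Trac, the T cell receptor alpha constant gene, at 5.32, 4.52 and 16.6 CPM against 4.44, 4.47 and 4.21 CPM. Without control 3 the medians were -0.60 and 0.04.

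Matrix and progenitor genes gave single differences. Of 32 extracellular matrix genes 1 was higher and 1 lower at an unadjusted p under 0.05. The share was 3.125% each way, against 1.93% and 7.72% of all genes. Thbs1, thrombospondin 1, stood at 142, 159 and 174 CPM against 81.4, 113 and 112 CPM (log2 change -0.64, limma adjusted p = 0.447). Of 23 genes of collagen hydroxylation and crosslinking 0 were higher and 4 lower, Plod2 among them, with a median of -0.08. The shares were 0% and 17.4%, against 1.93% and 7.72% of all genes. Tgm2, transglutaminase 2, stood at 407, 355 and 342 CPM against 272, 339 and 300.2 CPM. Of 19 progenitor and fibroblast genes 4 were higher and 2 lower (21.1% and 10.5%, against 1.93% and 7.72% of all genes). Pi16, a marker of interstitial progenitors, stood at 62.2, 54.0 and 27.0 CPM against 102, 217 and 83.7 CPM, and Sema3c, a semaphorin, at 103, 104 and 94.1 CPM against 133, 126 and 144 CPM, without overlap in either. Igfbp5, a binding protein of insulin-like growth factors, stood at 371, 357 and 344 CPM against 772, 539 and 585 CPM (log2 change 0.80, SE 0.13, limma adjusted p = 0.352; DESeq2 1.32e-07).

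Lists of stress, immune response and cell cycle genes had medians below 0 by small amounts. Of 26 interferon response genes, 25 had a change below 0, as did 8682 of all 13816 genes. At an unadjusted p under 0.05, 8 list genes were lower (30.8%, against 7.72% of all genes), with a list median of -0.19. Irf7, a transcription factor of the type I response, stood at 36.1, 38.9 and 39.8 CPM against 26.2, 31.8 and 27.0 CPM. Of 25 genes of the unfolded protein and integrated stress responses 0 were higher and 6 lower (24%, against 7.72% of all genes), and 11 lay below the controls without overlap, as did 12.3% of all genes. Herpud1, an endoplasmic reticulum degradation factor, stood at 81.2, 72.6 and 76.6 CPM against 61.7, 67.9 and 65.0 CPM. Of 23 immediate early and heat shock genes 0 were higher and 4 lower (17.4%, against 7.72% of all genes). The means of this list on the log2(CPM + 1) scale overlapped, at 5.04, 5.24 and 5.53 against 5.10, 5.16 and 4.95. Without control 3 its median was -0.07, next to -0.04 for all genes. Of 20 cell cycle genes 0 were higher and 4 lower (20%). The means of the cell cycle list overlapped too, at 4.00, 3.64 and 3.73 against 3.57, 3.56 and 3.78. Mcm6, a subunit of the replicative helicase, was among the lower cell cycle genes (26.9, 23.3 and 25.9 CPM against 19.0, 20.5 and 21.9 CPM). In none of these lists did a gene pass the adjusted threshold.

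Of 26 glutathione genes tested, 3 were higher and 1 lower at an unadjusted p under 0.05 (11.5% and 3.85%, against 1.93% and 7.72% of all genes), and 0 passed the adjusted threshold, with a median of 0.11. Besides Gsta4, Gsta3, another alpha-class transferase, stood at 21.5, 22.9 and 21.9 CPM against 63.95, 27.8 and 47.3 CPM, and Gpx4, the peroxidase that clears lipid hydroperoxides, at 537, 451 and 509 CPM against 649, 592 and 608 CPM. Gsr, glutathione reductase, was the lower one (39.9, 38.7 and 40.9 CPM against 31.4, 35.7 and 30.7 CPM). The list's median was 0.29 in knockout 1 and 0.02 in knockouts 2 and 3.

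**Figure D4:**
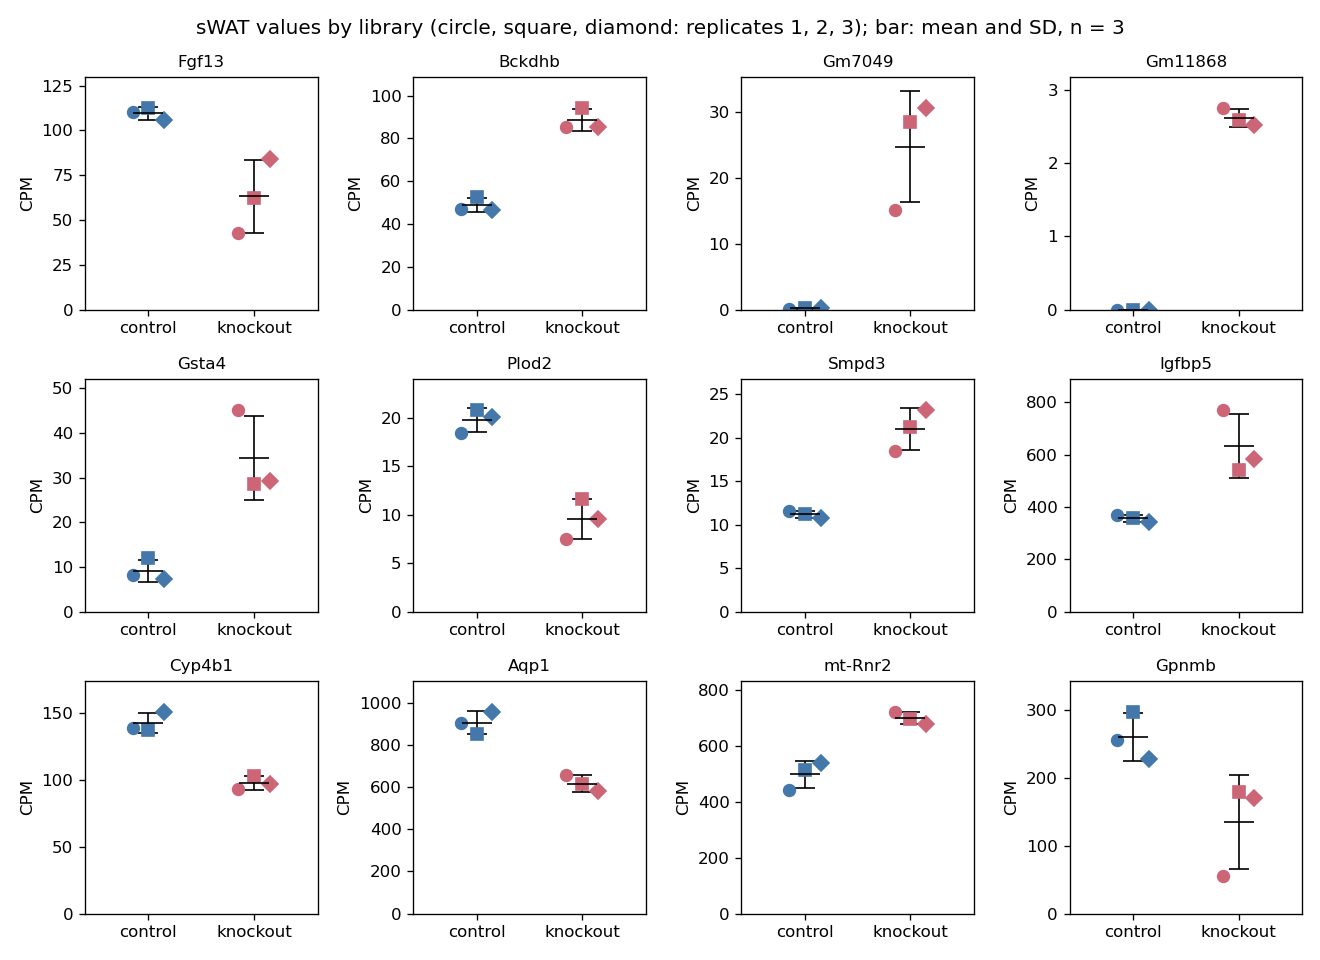
CPM of 12 genes in each sWAT library (circle, square and diamond are replicates 1, 2 and 3; black marks are the mean and SD, n = 3). The groups did not overlap in any panel; Bckdhb, Gm7049 and Gm11868 passed the adjusted threshold, and in Fgf13 and Gpnmb knockout 1 lay lowest (43.0 and 55.7 CPM).

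The 2 kinds of knockout library gave different lists of calls. With the mean of the muscle list as a covariate, 128 genes passed (0.926%), 21 higher and 107 lower, and the 3 genes named above were among them. The covariate was high only in knockouts 2 and 3, so that this fit largely sets knockout 1 against the controls. For 125 of the 128, knockout 1 lay outside all 5 other libraries, and 85 of the 128 had groups that did not overlap, against 16.1% of all genes. Both counts come from the libraries that gave the calls. Hs6st1, a heparan sulfate sulfotransferase, stood at 63.7, 61.5 and 59.2 CPM against 26.6, 37.1 and 40.7 CPM, all knockouts below all controls (log2 change -0.82 over all libraries, limma adjusted p = 0.447; -1.14 with the covariate, 0.00557). Adam8, a metalloprotease of activated myeloid cells, stood at 61.8, 61.8 and 58.8 CPM against 13.1, 49.3 and 42.4 CPM, and Pdk4, the kinase that shuts pyruvate dehydrogenase, at 99.4, 107.9 and 99.6 CPM against 44.3, 79.3 and 82.1 CPM. Knockout 1 carried most of both differences. Fbn1, fibrillin 1, stood at 133, 170 and 147 CPM against 365, 203 and 173 CPM, where knockout 1 was again the library that stood out.

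Knockout 1 was among the 3 knockouts behind each unadjusted p, so its side in the genes of small p was largely set by that choice. The next counts therefore cannot show whether the 2 kinds of library went the same way. Of the 1067 genes lower over all libraries at an unadjusted p under 0.05, 1043 lay below every control in knockout 1 as well, and of the 267 higher genes 256 lay above every control there. An identifier without a symbol in the annotation used here, ENSMUSG00000119584, held 11445 CPM in knockout 1 and 1396 to 1659 CPM in the other 5 libraries.

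**Figure D5:**
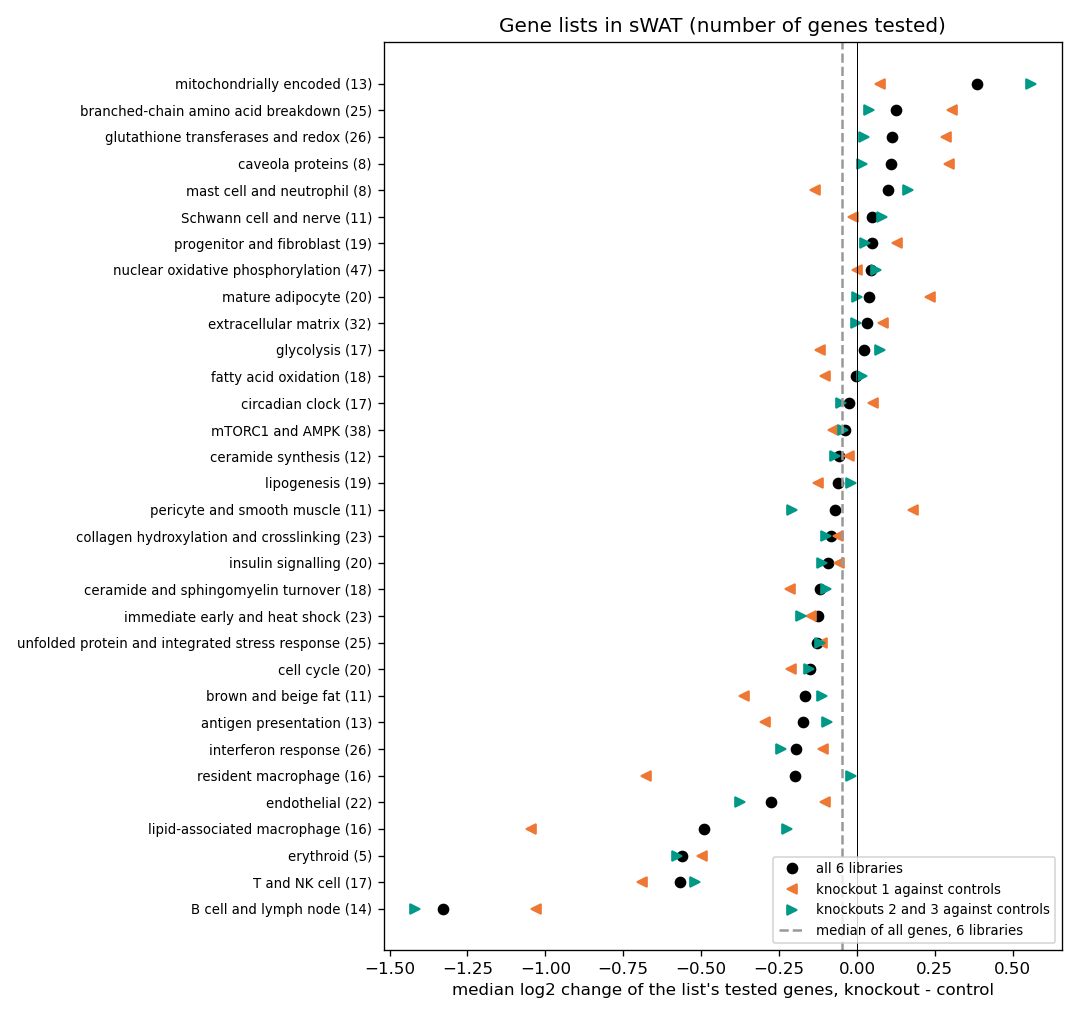
Median log2 change (knockout minus control) of the tested genes of each list, over all 6 libraries (circles), for knockout 1 against the controls (left triangles) and for knockouts 2 and 3 against the controls (right triangles). The lists of skeletal muscle, FGF homologous factors and epithelium of skin and mammary gland are left out. The dashed line is the median of all genes (-0.05). The mitochondrially encoded and endothelial medians were farthest from 0 in knockouts 2 and 3, and the medians of the 2 macrophage lists in knockout 1.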

How the data were processed

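RNA was extracted with a Qiagen RNeasy kit and sequenced on a HiSeq2000 with 50 cycles, per the labels' protocols. The authors deposited CPM values per Ensembl gene for 4 depots, the subcutaneous table among them, and FPKM values for a further epididymal set. Salmon, FastQC, MultiQC and DESeq2 1.38.3 appear in the submitters' processing notes. The handling of reads that match several genes, like the genome build and the annotation, was not given in the sources used here. CPM steps gave whole reads for 100% of values (tolerance 0.01 reads), from which depth was recovered. GENCODE M21 (GRCm38) gave symbols for 51425 of 55891 identifiers (92.01%), transcript sequences and distances. Identifiers without a match held 0.509% to 1.45% of reads.

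Genes with at least 1 CPM in 3 or more of the 6 libraries were tested on log2(CPM + 1) with limma 3.58.1 in R 4.3.3 (eBayes with trend and robust settings), with Benjamini-Hochberg adjustment over all 13816 genes and a threshold of 0.05. Fold changes on this scale understate changes of low genes. edgeR 4.0.16 and DESeq2 1.42.0 on the recovered reads, other scalings, pseudocounts and filters, a muscle covariate, a replicate block and the removal of libraries were alternatives. On simulated counts for this comparison (13816 genes, 3 against 3), limma called 75 of 100 genes changed 2-fold, 33 of 100 changed 1.5-fold and 15 unchanged genes. DESeq2 called 80, 44 and 44. No simulated library was given muscle RNA or made to stand apart, as knockout 1 and control 3 do here. The changed genes were drawn only from those above a minimum control level. These counts therefore do not measure recovery in the real libraries. The other depots were fitted in their own tables.

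Genes were named by rule: Fgf13, genes past the threshold, the 30 smallest p values, genes at 0 in 1 group, up to 20 genes of the covariate fit, up to 4 of smallest p in each list, muscle and adipocyte controls, the genes of the leading 10 Mb window and the parents of pseudogenes. The comparison and the gene lists were chosen with earlier results of these data known. The identifier without a symbol was singled out after its values were seen. Values of 2 list members are not reported here.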

Additional observations from a re-analysis of the deposited data

Results flagged for a closer look

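Of the 111 genes examined under the alternatives, 8 went opposite ways in 2 depots; genes outside these were not searched. For these 8, every knockout library of subcutaneous fat lay on one side of its controls and every knockout library of brown fat from the same kind of knockout lay on the other side; the difference between the depots was not tested. Groups did not overlap for 16.1% of genes in subcutaneous fat and 44.5% in brown fat, which had 2 knockout libraries. Smpd3, the neutral sphingomyelinase, had a log2 change of 0.85 in subcutaneous and -1.17 in brown fat, where it stood at 3.91, 2.95 and 4.93 CPM in the controls and 0.738 and 1.67 CPM in the knockouts. Mgl2 had changes of 0.75 and -0.99, and Cd163, the other phagocyte receptor, of 0.65 and -0.21. Among matrix and progenitor genes, the changes were 0.41 and -1.13 for Sema3c, 0.65 and -0.82 for Fbn1, and 0.26 and -1.60 for Col1a2, a chain of type I collagen. Grb10 had changes of 0.40 and -0.38, and Cav2, a caveola protein, of 0.19 and -0.29.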

How the results depend on the processing

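The count of 3 genes past the threshold became 52 in DESeq2, 1 in edgeR, 5 with no filter on low values, 5 with a pseudocount of 0.1, 128 with the muscle covariate and 765 with knockout 1 alone against the controls; leaving out 1 library gave 0 to 92. No fit with the replicate number as a block was preferred, because same-numbered libraries did not deviate together (r = -0.24, 0.00 and -0.14) and the labels give no pairing; with the replicate block the count was 1. The log2 change of Fgf13 was -1.29 with the covariate and -1.33 with knockout 1 alone, and -1.06 to -0.59 with 1 library left out. In the window of Bckdhb the count was 11 of 36 genes at an unadjusted p under 0.05, and 3 to 6 with 1 library left out.
Of 1986 values for 111 genes under these alternatives, 1823 kept their direction and side of the threshold, 123 passed it anew, 15 lost it and 25 changed direction; 99 genes never changed direction. With knockout 1 alone, the log2 change was 0.0325 for Morf4l1, -0.224 for Cycs, -0.0915 for Acta1, -1.29 for Pvalb, -0.0871 for Pygm, -0.0241 for Eno3, -0.357 for Casq1, -0.282 for Ryr1, -0.588 for Neb, -0.041 for Myh1 and -0.127 for Fasn. With the covariate it was 0.0161 for Morf4l1, -0.189 for Cycs, -0.79 for Pvalb, -0.0816 for Casq1, -0.29 for Neb, -0.0614 for Myh1 and -0.121 for Fasn. With 1 library left out, the change ran from -0.0179 to 0.194 for Cycs, -0.14 to 0.229 for Myh1, -0.148 to 0.0168 for Adipoq and -0.12 to 0.158 for Fasn. Acta1, Pvalb, Pygm, Eno3, Casq1, Ryr1 and Neb were high only in knockouts 2 and 3; for the other genes the cause was not tested.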
